A study of Drosophila melanogaster with 12 samples.

Results

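Transcripts of 10 genes that encode components of the septate junction, *Nrx-IV*, *Nrg*, *Cont*, *cora*, *sinu*, *kune*, *Gli*, *vari*, *Lac* and *Tsf2*, were followed in glial nuclei of 3 *Drosophila* genotypes. The genes were chosen by their FlyBase symbols, whatever their counts, but with earlier results of these data known. The symbols of 9 of the 10 matched an identifier among the 15682 genes counted, and all 9 were among the 9966 genes tested. *Nrg*, which encodes the cell adhesion protein Neuroglian, could not be matched and was not analysed here.

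Nuclear RNA was sequenced from affinity-enriched glial nuclei of larvae at the wandering stage of the third instar, with 4 biological replicates of wild type, *nonstop* and *sgf11*. In all 3 genotypes, *repo-GAL4* drove *UAS-KASH-GFP* (*UAS-GFP-Msp300KASH*, inserted at attP2) in a *w* background, so that nuclei of many glial types carried the tag and barrier glia were only some of them. Wild-type larvae carried both transgenes over the balancer *TM3*, *Sb1*, whereas *nonstop* larvae were homozygous for *not02069 ry506*, a P-element insertion, and *sgf11* larvae for the PBac insertion *CG13379 e01308*. Each replicate pooled nuclei from many dissected complexes of central nervous system and eye-antennal discs, and both mutations were present in the whole larva.

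Septate junctions are the occluding junctions of insects, with a ladder of septa between neighboring cells, and they take the place that tight junctions have in vertebrates. In the nervous system they seal the subperineurial glia, a layer of large flat cells that forms the blood-brain barrier together with the perineurial glia above it. The core is a complex of cell adhesion proteins, to which claudins, a sodium pump and GPI-anchored proteins are added, and a separate set of proteins marks the corners where 3 cells meet. Nonstop and Sgf11 are subunits of the deubiquitinase module of the coactivator SAGA, which removes ubiquitin from histone H2B.

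Each library held between 6913032 and 11459317 counts within genes. Values are given in CPM, the counts of a gene scaled to a common library size. Before further adjustment, 1 CPM is 6.91 to 11.5 counts. For the values given here, library sizes were then adjusted by TMM, edgeR's trimmed mean of M values. As a check of the labels, the mutated genes were examined first. For *not*, the wild-type mean was 26.8 CPM, the *nonstop* mean 9.80 CPM and the *sgf11* mean 17.2 CPM (SD 2.43, 0.91 and 2.57, n = 4 each). *Sgf11* had 4.73 ± 1.41 CPM in wild type (SD, n = 4), 3.87 ± 0.49 CPM in *nonstop* (SD, n = 4) and only 2 counts in all *sgf11* libraries. Wild-type replicate 4 held the lowest value of its genotype for 9 of the 9 measured septate junction genes, and *sgf11* replicate 4 for 8 of the 9. In the same direction, *nonstop* replicate 4 held the lowest value for 4 of the 9 and the highest for 0. How often each library was lowest among all genes tested was not computed. Results were also computed without wild-type replicate 4 and *sgf11* replicate 4, a choice made after the data were seen.

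In wild-type glia the septate junction genes were well expressed. Their levels as FPKM, which is CPM divided by the exon length of the gene in kilobases (BDGP6 annotation), all lay above the median of 6.12 FPKM for tested genes. *Lac* ranked highest among the 9, at 129 ± 11.6 FPKM (SD, n = 4), above 97.6% of the 9476 tested genes with an exon length. *vari* ranked lowest, at 18.9 ± 0.467 FPKM (SD, n = 4), above 79.3% of them. After *Lac* came *cora* at 100.1 ± 5.65, *kune* at 76.4 ± 10.6, *Nrx-IV* at 64.8 ± 4.56 and *Cont* at 61.6 ± 5.84 FPKM (SD, n = 4 each). *sinu* followed at 52.8 ± 3.43, *Tsf2* at 27.8 ± 2.48 and *Gli* at 25.5 ± 2.19 FPKM (SD, n = 4 each). The intervals of 1 SD around the means overlapped for *kune* and *Nrx-IV*, *Nrx-IV* and *Cont*, *Cont* and *sinu*, and *Tsf2* and *Gli*. These intervals leave out that both genes of a pair were measured in the same libraries. *Nrx-IV* and *Cont*, whose products sit in the same complex, were present at a ratio of 1.05 ± 0.0508 per length (SD, n = 4). The ratio ranged from 1.01 to 1.11 over the wild-type libraries.

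**Figure D1:**
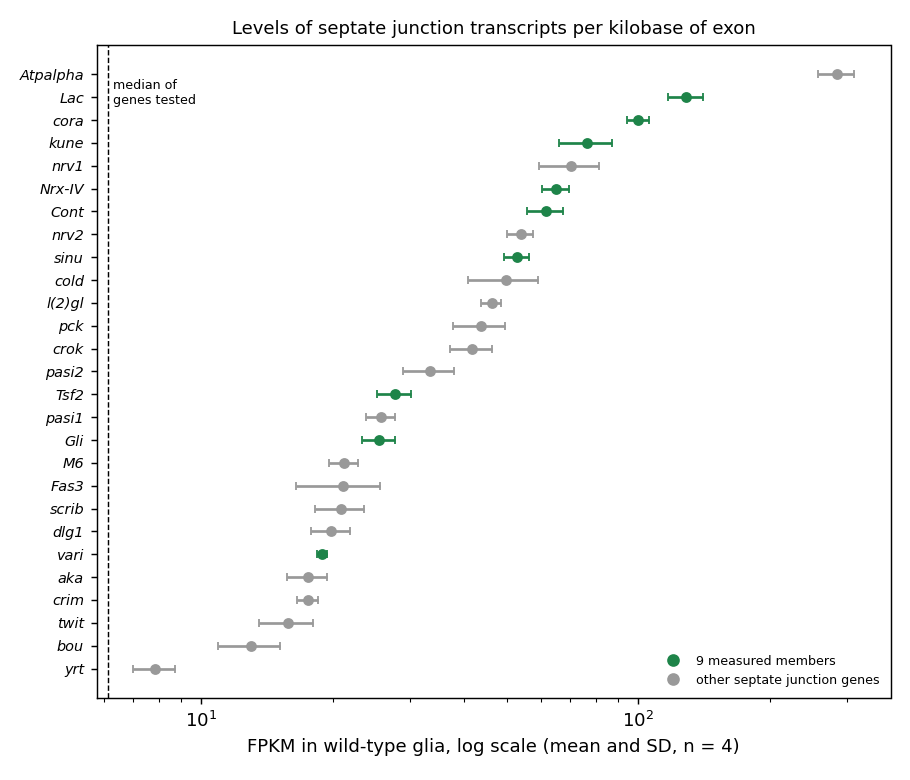
Levels of septate junction transcripts in wild-type glia, as FPKM on a log scale (points, mean of 4 libraries; bars, SD), for the 9 measured genes (green) and for 18 further septate junction genes (grey), without those of the smooth septate junction. All lie to the right of the dashed line at the median of tested genes, 6.12 FPKM, and *Lac* at 129 FPKM is exceeded only by the sodium pump gene *Atpalpha* among the genes drawn.

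To ask how the septate junction genes respond to loss of SAGA deubiquitinase subunits, each mutant was compared with wild type. *Nrx-IV*, *Cont*, *Lac* and *Tsf2* were significantly downregulated in *nonstop* glia, to between 55.9 and 69.9% of the wild-type mean, and also in *sgf11* glia, to between 59.7 and 76.9%. *cora*, *sinu*, *kune*, *Gli* and *vari* were not called in either mutant, and 0 of the 9 genes were upregulated in either, also by DESeq2 and by edgeR's exact test. A gene was called at a false discovery rate (FDR) under 0.01 over all genes tested, from edgeR's quasi-likelihood test on the 12 libraries. At an unadjusted p under 0.05 from this edgeR fit, 1 of the 9 was higher in each mutant, *vari* in *nonstop* and *Gli* in *sgf11*. At the same p, 5 were lower in *nonstop*, *kune* among them, and 4 in *sgf11*. The share of all genes at this unadjusted p was not computed. Of all genes tested, 35.7% were called in *nonstop* (17.0% down and 18.7% up) and 30.5% in *sgf11* (14.1% down and 16.4% up). The 4 downregulated genes make up 44.4% of the 9 in each mutant, a number too small for more than a description. The median log2 fold change of the 9 was -0.29 in *nonstop* and -0.20 in *sgf11*, beside 0.0062 and 0.015 for all genes tested. The wild-type libraries are shared by both comparisons, so the results of one mutant are no repeat of those of the other. In nuclei pooled from all glia, fewer barrier glia and less RNA per cell cannot be told apart.

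*Nrx-IV* (FBgn0013997, BDGP6 3L:12146519-12156990) encodes Neurexin IV, a transmembrane protein that is needed for the septa to form. Its transcripts were at 348, 335, 349.9 and 299 CPM in the 4 wild-type libraries. They were at 219, 228, 256 and 228 CPM in *nonstop* and at 262, 266, 259 and 208 CPM in *sgf11*. All 8 mutant libraries lay below all 4 wild-type libraries, and *nonstop* and *sgf11* overlapped. The log2 fold change was -0.52 in *nonstop* (SE 0.10, FDR = 4.51e-04 by edgeR's quasi-likelihood test) and -0.42 in *sgf11* (SE 0.10, FDR = 0.00266). The *sgf11* call was lost without *sgf11* replicate 4, the lowest library of its group, where the log2 fold change was -0.34 (FDR = 0.0126).

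*Cont* (FBgn0037240, 3R:4381306-4387018) encodes Contactin, a GPI-anchored immunoglobulin protein that binds Neurexin IV. The wild-type libraries were at 289.7, 307, 317 and 254 CPM. The *nonstop* libraries were at 186, 202, 194 and 179 CPM, and the *sgf11* libraries at 223, 240.4, 239.9 and 195 CPM. Both mutants were below wild type with no overlap, and *nonstop* tended to lie below *sgf11*, with 3 of its 4 libraries under the lowest *sgf11* library. This was a log2 fold change of -0.62 in *nonstop* (SE 0.10, FDR = 6.94e-05 from the same test) and -0.38 in *sgf11* (SE 0.10, FDR = 0.00503). Leaving out any of 4 libraries ended the *sgf11* call. The FDR was 0.0184 without wild-type replicate 2, 0.0167 without wild-type replicate 3, 0.0109 without *sgf11* replicate 1 and 0.0205 without *sgf11* replicate 4.

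*Lac* (FBgn0010238, 2R:12453190-12465630) encodes Lachesin, a GPI-anchored immunoglobulin protein of the septate junction that is known for its part in tracheal tube size. It was at 272, 300.1, 293 and 245 CPM in wild type. In *nonstop* it was at 149.5, 191, 139 and 140.3 CPM, and in *sgf11* at 169, 188, 181 and 125 CPM. Of the 9 genes it had the largest change in either mutant, at -0.84 on the log2 scale in *nonstop* (SE 0.13, FDR = 5.61e-05) and -0.74 in *sgf11* (SE 0.13, FDR = 2.22e-04 by edgeR's quasi-likelihood test). The highest mutant library, *nonstop* replicate 2, was still below the lowest wild-type library. *Lac* was called in both mutants under all 23 alternatives tried.

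*Tsf2* (FBgn0036299, 3L:12530436-12533724) encodes Transferrin 2, a membrane-anchored iron-binding protein of the melanotransferrin kind that is required for septate junction assembly. It was at 88.4, 80.5, 80.9 and 70.9 CPM in wild type. The *nonstop* libraries were nearly level, at 53.1, 53.4, 50.3 and 50.1 CPM, and the *sgf11* libraries were at 59.9, 64.5, 62.9 and 52.9 CPM. No mutant library reached the lowest wild-type library. The log2 fold changes were -0.63 in *nonstop* (SE 0.09, FDR = 3.36e-05) and -0.42 in *sgf11* (SE 0.09, FDR = 0.00170 from the same test).

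**Figure D2:**
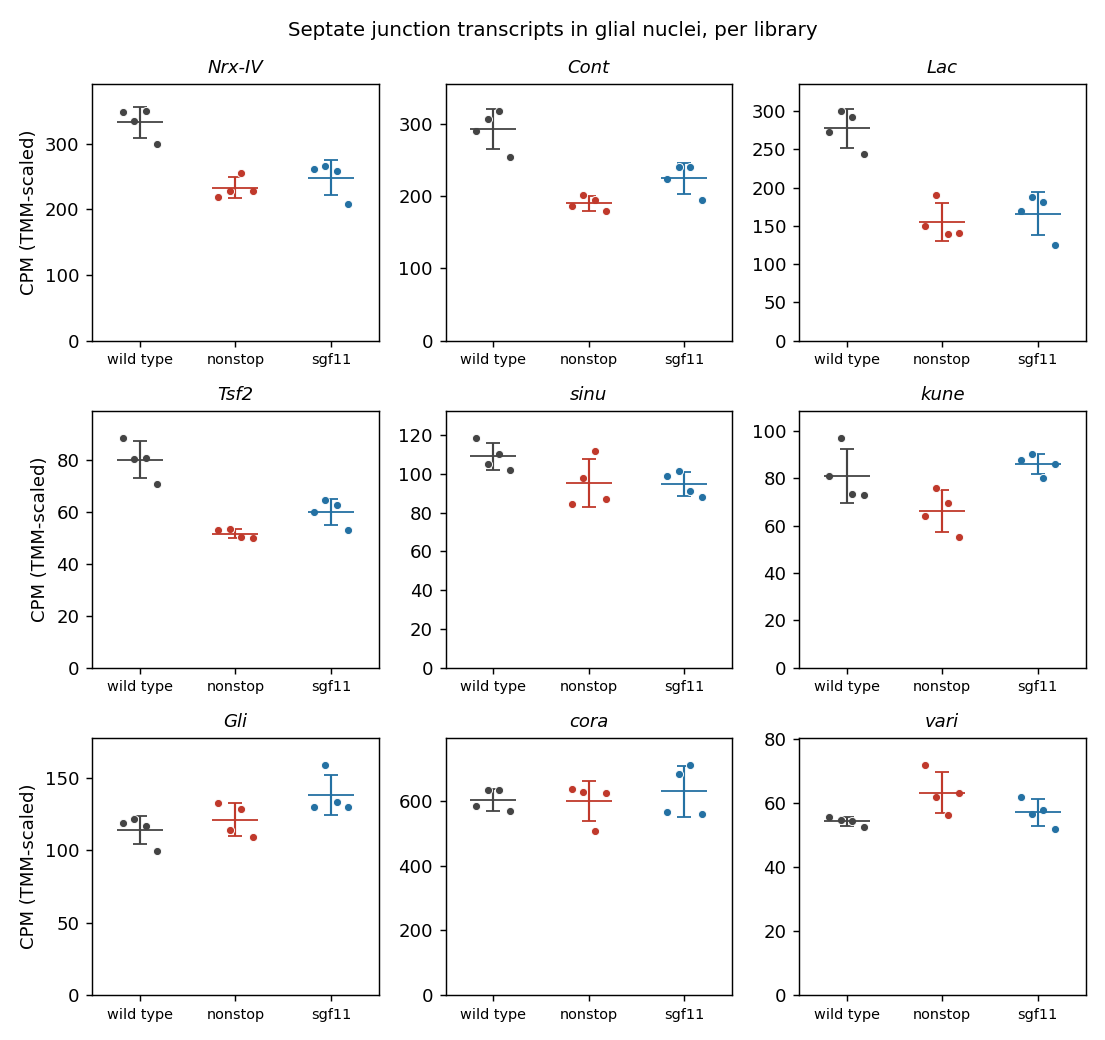
CPM of the 9 measured septate junction genes in each of the 4 libraries per genotype (points), with the mean (horizontal line) and SD (bars); each axis starts at 0. For *Nrx-IV*, *Cont*, *Lac* and *Tsf2* all 8 mutant libraries lie below the 4 wild-type libraries, for example *Tsf2* at 50.1 to 64.5 CPM against 70.9 to 88.4 CPM.

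The claudin genes *sinu* and *kune* were not called in either mutant. *sinu* (FBgn0010894, 3L:5559470-5561598), which encodes the claudin Sinuous, was at 118, 105, 110.3 and 102 CPM in wild type, at 84.5, 97.8, 112 and 86.9 CPM in *nonstop*, and at 98.7, 102, 91.1 and 87.9 CPM in *sgf11*. The *nonstop* libraries overlapped those of wild type, and the *sgf11* libraries came close to them without overlap, since the highest *sgf11* library (101.6 CPM) was just under the lowest wild-type library (102.1 CPM). The log2 fold change was -0.20 in both, with a 95% interval of -0.41 to 0.016 in *nonstop* and -0.41 to 0.011 in *sgf11* (FDR = 0.117 and 0.116 by edgeR's quasi-likelihood test).

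*kune* (FBgn0033032, 2R:5671741-5672800), which encodes the claudin Kune-kune, was at 80.8, 96.9, 73.4 and 72.8 CPM in wild type, at 64.1, 75.9, 69.7 and 55.1 CPM in *nonstop*, and at 87.8, 90.4, 80.2 and 85.9 CPM in *sgf11*. It is the gene of the 9 in which the mutants lay farthest apart, and they did not overlap. Against wild type, with which both mutants overlapped, the log2 fold change was -0.29 in *nonstop* (95% interval -0.53 to -0.055, FDR = 0.0403) and 0.089 in *sgf11* (-0.15 to 0.33, FDR = 0.549). Between the mutants it was -0.38 (95% interval -0.62 to -0.14, FDR = 0.0730 by edgeR's quasi-likelihood test), which did not pass the threshold. With library size alone as the scale, *kune* was called in *nonstop* (FDR = 0.00623).

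Genes for the intracellular partners of Neurexin IV were also not called. *cora* (FBgn0010434, 2R:19229063-19243751) encodes Coracle, a FERM protein that binds the cytoplasmic tail of Neurexin IV. It was at 584, 635, 633 and 568 CPM in wild type, at 639, 629, 507 and 625 CPM in *nonstop*, and at 567, 684, 711 and 559 CPM in *sgf11*, so that all 3 genotypes overlapped. Its log2 fold change was -0.013 in *nonstop* (95% interval -0.25 to 0.22, FDR = 0.934 by edgeR's quasi-likelihood test) and 0.059 in *sgf11* (-0.18 to 0.30, FDR = 0.698), and its sign turned with the scaling in both.

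*vari* (FBgn0250785, 2L:20788662-20797042) encodes Varicose, a scaffold protein of the MAGUK family that also binds this tail. It was at 55.6, 54.6, 54.2 and 52.4 CPM in wild type, at 71.7, 62.0, 56.3 and 63.0 CPM in *nonstop*, and at 61.9, 56.6, 57.9 and 51.8 CPM in *sgf11*. The *nonstop* libraries all lay above wild type by a small margin, with a log2 fold change of 0.22 (95% interval 0.025 to 0.42, FDR = 0.0584 by edgeR's quasi-likelihood test). The value in *sgf11* was 0.075 (-0.12 to 0.27, FDR = 0.550). In the annotation, 15.2% of the exon length of *vari* overlaps the gene *Pomp*. Counting was in union mode without strand, where a read that touches both genes is assigned to neither.

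*Gli* (FBgn0001987, 2L:15756002-15762758) encodes Gliotactin, a transmembrane protein of the corners between 3 cells that was first described in glia of the peripheral nerve. It was at 119, 121, 117 and 99.7 CPM in wild type, at 133, 114, 128 and 109 CPM in *nonstop*, and at 129.96, 159, 133 and 129.67 CPM in *sgf11*. The *sgf11* libraries lay above those of wild type, and the *nonstop* libraries overlapped both. The value was 0.27 in *sgf11* (95% interval 0.059 to 0.49, FDR = 0.0369 by edgeR's quasi-likelihood test) and 0.085 in *nonstop* (-0.13 to 0.30, FDR = 0.511), neither of which passed the threshold.

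**Figure D3:**
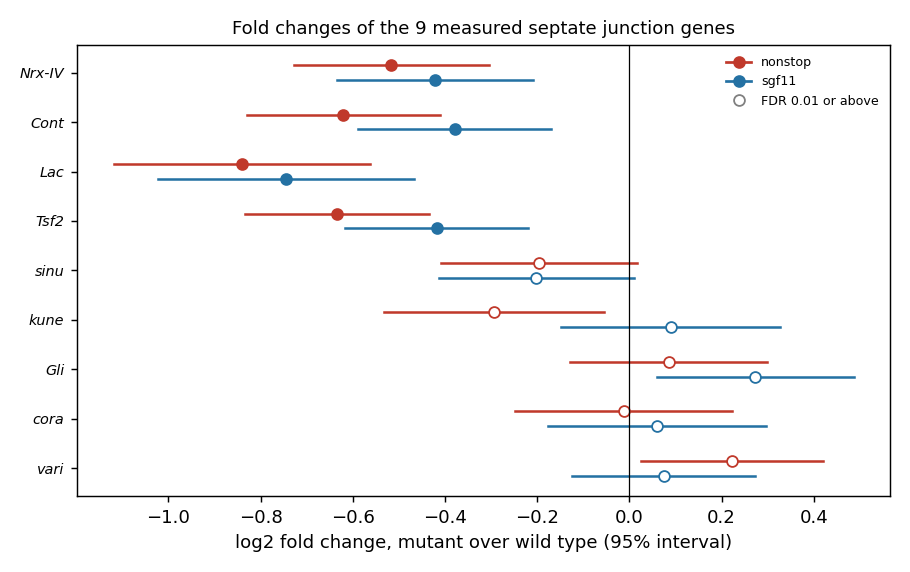
Log2 fold change of each of the 9 genes over wild type in *nonstop* (red) and *sgf11* (blue), with 95% intervals; filled circles have an FDR under 0.01. *Lac* is lowest in both mutants, at -0.84 and -0.74, and the values of *cora* lie at -0.013 and 0.059.

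The libraries of mutant and wild type did not overlap for 5 of the 9 genes in *nonstop* (the 4 downregulated genes and *vari*) and for 6 in *sgf11* (the 4 and *sinu* and *Gli*). Among all genes tested, 42.9% did not overlap in *nonstop* and 39.5% in *sgf11*. The test between *nonstop* and *sgf11* called 0 of the 9 genes (edgeR's quasi-likelihood test, and likewise DESeq2 and the exact test), where 2.11% of all genes were called (1.28% lower and 0.823% higher in *nonstop*), and the libraries of the mutants did not overlap for 1 gene, *kune*, beside 10.2% of all genes. At an unadjusted p under 0.05 from the quasi-likelihood test, 3 of the 9 were lower in *nonstop*, namely *kune*, *Cont* and *Tsf2*. The share of all genes at this unadjusted p was not computed, and the 2.11% above is for the FDR threshold. For the 4 downregulated genes, the log2 difference of *nonstop* from *sgf11* was -0.094 for *Nrx-IV* (95% interval -0.31 to 0.12), -0.24 for *Cont* (-0.45 to -0.032), -0.096 for *Lac* (-0.37 to 0.18) and -0.22 for *Tsf2* (-0.42 to -0.015).

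The downregulation in *nonstop* did not depend on the scaling, whereas that in *sgf11* did in part. *Nrx-IV*, *Cont*, *Lac* and *Tsf2* were called in *nonstop* under all 23 alternatives, their highest FDR being 0.00419. Without wild-type replicate 4 and *sgf11* replicate 4 together, 4 of the 9 genes were downregulated in each mutant. With entries without a gene name counted in the totals, 3633 genes pass the same filter on low counts, and TMM factors from these genes alone shift the median of all genes upward, by 0.146 on the log2 scale for *nonstop* and by 0.123 for *sgf11*. Relative to this scale only *Lac* was called down in *sgf11*, while *Gli* was called up in *sgf11* (log2 fold change 0.39) and *vari* in *nonstop* (0.37).

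Ratios between genes of the same library do not depend on the scaling. The ratio of *Lac* to *cora*, per length, was between 1.21 and 1.33 in the wild-type libraries, between 0.630 and 0.852 in *nonstop* and between 0.626 and 0.834 in *sgf11*. Both mutants lay below wild type without overlap, and the same held for *Nrx-IV* to *cora*, with 0.620 to 0.701 in wild type, beside 0.404 to 0.595 in *nonstop* and 0.428 to 0.543 in *sgf11*. *Tsf2* to *cora* was 0.262 to 0.317 in wild type, beside 0.168 to 0.208 in *nonstop* and 0.185 to 0.221 in *sgf11*. The ratio of *Nrx-IV* to *Cont*, in contrast, overlapped between the genotypes, with means of 1.05 ± 0.0508 in wild type, beside 1.13 ± 0.0797 in *nonstop* and 1.02 ± 0.0438 in *sgf11* (mean ± SD of 4 libraries each).

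Most of the 9 genes varied in the same direction within genotypes. On deviations of log2 CPM from the mean of the genotype, over 12 libraries, Pearson's r was 0.86 for *Cont* and *Lac*, 0.80 for *Nrx-IV* and *Cont*, and 0.78 for *Cont* and *Tsf2*. The other pairs of the 4 downregulated genes had 0.59 (*Nrx-IV* and *Lac*), 0.71 (*Nrx-IV* and *Tsf2*) and 0.75 (*Lac* and *Tsf2*). Pairs with genes that were not called reached like values, such as 0.74 for *Nrx-IV* and *sinu* and 0.66 for *cora* and *Lac*. Of the 36 pairs of the 9 genes, 32 had a positive value, the median was 0.43 and the range was -0.38 (*cora* and *sinu*) to 0.86. These are descriptions of libraries that share a scaling factor and a preparation for all genes. No values for pairs of other genes were set beside them. *Lac* in *sgf11* replicate 4 was at 125 CPM, beside 169 to 188 CPM in the other *sgf11* libraries, and was the lowest value relative to its genotype of the 9 genes.

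**Figure D4:**
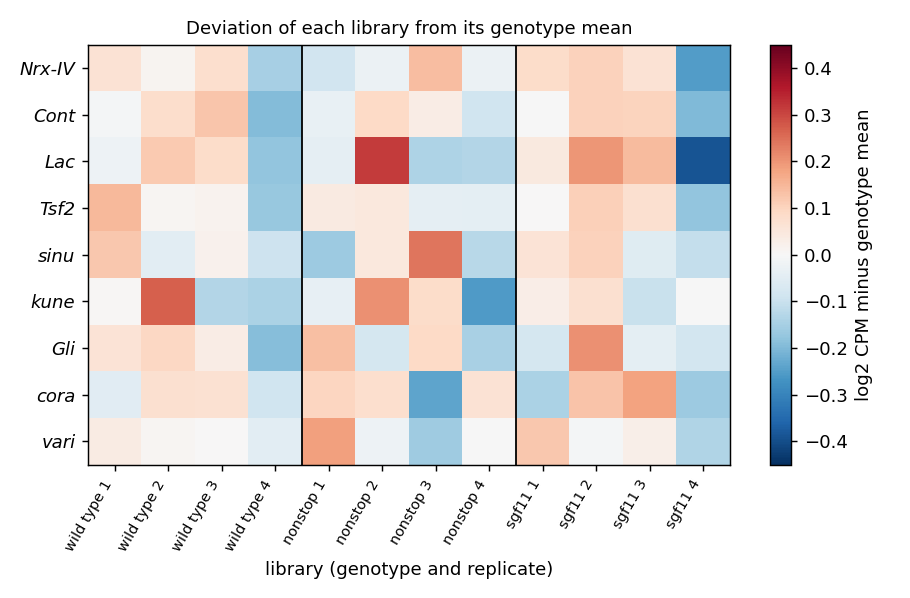
Deviation of log2 CPM from the mean of the genotype, for each of the 9 genes (rows) in each of the 12 libraries (columns); red is above and blue below the mean. The columns of wild-type replicate 4 (median deviation -0.15) and *sgf11* replicate 4 (-0.16) are blue for most genes. The median deviation of *nonstop* replicate 4 was -0.089.

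Over all 12 libraries, the gene most like *Cont* among all genes tested was *Tsf2* (Pearson's r of log2 CPM = 0.97), a correlation that includes the differences between the genotypes. Those of *Nrx-IV* and *Lac* were *BicD* (0.98) and *CG14598* (0.98), and that of *Tsf2* was *alphaCOP* (0.98). For the genes that were not called, the most similar profiles were those of *Act87E* for *sinu* (0.91), *nmdyn-D7* for *cora* (0.90), *CG4393* for *vari* (0.89), *RpS7* for *kune* (0.87) and *CG18870* for *Gli* (0.85).

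Of the 2 genes listed for subperineurial glia, *moody* was downregulated in *nonstop* and *Mdr65* was not called. Their sum was at 2627 to 3590 CPM in wild type, beside 2358 to 3556 in *nonstop* and 2447 to 3798 in *sgf11*. *moody*, which encodes a G protein-coupled receptor needed for the barrier, was at 549, 553, 485 and 462 CPM in wild type, at 359, 431, 309 and 306 CPM in *nonstop*, and at 308, 456, 417 and 306 CPM in *sgf11*. The highest library of either mutant was below the lowest wild-type library, and the log2 fold change was -0.54 in *nonstop* (SE 0.14, FDR = 0.00467 by edgeR's quasi-likelihood test) and -0.46 in *sgf11* (SE 0.14, FDR = 0.0143), which did not pass. *Mdr65*, which encodes an ABC transporter of the barrier, was at 2611 ± 369 CPM in wild type, beside 2443 ± 492 in *nonstop* and 2636 ± 594 in *sgf11* (mean ± SD of 4 libraries each), with log2 fold changes of -0.096 (FDR = 0.668) and 0.014 (FDR = 0.957). The general glial marker *repo* had log2 fold changes of -0.29 (FDR = 0.0709) and -0.23 (FDR = 0.1502 from the same test).

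The 4 downregulated genes were also set against *moody* and *Mdr65* counts of the same library. *Nrx-IV* counts per *moody* count were 0.606 to 0.722 in wild type, beside 0.529 to 0.8286 in *nonstop* and 0.582 to 0.851 in *sgf11*, with all genotypes overlapping, and *Cont* and *Tsf2* overlapped likewise. *Lac* per *moody* was 0.497 to 0.604 in wild type, 0.416 to 0.458 in *nonstop*, below wild type without overlap, and 0.409 to 0.549 in *sgf11*. Per *Mdr65*, *Lac* was 0.0896 to 0.137 in wild type, beside 0.0603 to 0.0681 in *nonstop* and 0.0563 to 0.0787 in *sgf11*, and both mutants were below wild type without overlap, whereas *Nrx-IV* per *Mdr65* overlapped (0.114 to 0.163, 0.0730 to 0.1251 and 0.0795 to 0.122). *Cont* and *Tsf2* per *Mdr65* were below wild type without overlap in *nonstop*, at 0.0647 to 0.0949 against 0.0952 to 0.148 for *Cont* and at 0.0171 to 0.0245 against 0.0274 to 0.0378 for *Tsf2*. Both overlapped wild type in *sgf11*, with 0.0720 to 0.104 for *Cont* and 0.0193 to 0.0279 for *Tsf2*. *cora* and *Gli*, which were not called, lay higher per *moody* in both mutants, with *cora* means of 1.19 in wild type, 1.73 in *nonstop* and 1.72 for *sgf11* (SD 0.104, 0.245 and 0.159, n = 4 each). Per *Mdr65*, all genotypes overlapped for both genes, with means of 0.236, 0.2502 and 0.244 for *cora* and of 0.0443, 0.0510 and 0.0536 for *Gli*. The part of a change in the share of barrier glia in these results was not tested.

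Markers of other cell types also moved. Summed over its 4 genes, of which 3 were upregulated in each mutant, the list for astrocyte-like glia was at 865 to 1618 CPM in wild type, beside 1755 to 3530 in *nonstop* and 2050.3 to 2967 in *sgf11*. Of 5 neuronal genes 4 were upregulated in each mutant, from a sum of 405 to 583 CPM in wild type to 646 to 776 in *nonstop* and 591 to 707 in *sgf11*. Epithelia outside the brain also have septate junctions, and of 2 epithelial genes (*crb* and *grh*) *crb* was upregulated in each mutant, from a mean of 40.2 CPM to 98.4 and 67.9 CPM, while *grh* was not called, with log2 fold changes of -0.47 (FDR = 0.0402) and -0.40 (FDR = 0.0860 by edgeR's quasi-likelihood test). Summed, both were at 71.0 to 98.5 CPM in wild type, beside 114.95 to 145 in *nonstop* and 84.0 to 114 in *sgf11*. The 2 perineurial genes rose in *nonstop* and 1 of them in *sgf11* (127 to 193, 244 to 311 and 185 to 331 CPM), and of 4 neuroblast genes 1 fell in *nonstop* and 3 in *sgf11* (54.4 to 72.3, 43.1 to 45.6 and 29.9 to 41.9 CPM). Of the 3 genes for glia at large, *nrv2* rose and *loco* fell in *nonstop* and none was called in *sgf11*. Both measured genes for cortex glia, the 3 for trachea and the 3 for hemocytes gave no call, and 1 of 4 genes of eye disc and photoreceptors and 1 of 3 of muscle fell in *sgf11*. No marker was at 0 in any library, and the part of other cell types in the values of the septate junction genes was not tested.

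*Nrx-IV*, *Cont*, *sinu* and *Tsf2* lie on chromosome 3, which *TM3* replaces on one homolog in wild type, and the other 5 measured genes lie on chromosome 2. Among tested genes, 18.0% on chromosome 3 and 16.5% on other chromosomes were downregulated in *nonstop*, and 15.2 and 13.3% in *sgf11*. Of the measured genes, *Nrx-IV*, *Cont* and *Tsf2* on chromosome 3 and *Lac* on 2R were downregulated in both mutants. The others, *sinu* on chromosome 3 and the rest on chromosome 2, were not called. Effects of the strains and of *TM3* cannot be told apart from those of the mutations.

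The other genes of the septate junction did not move as 1 group. Of 23 such genes listed, 22 were matched and 21 tested. In *nonstop* 8 were downregulated and 4 upregulated, and in *sgf11* 4 and 3. These are 38.1% down and 19.0% up in *nonstop*, beside 17.0 and 18.7% of all genes, and 19.0% down and 14.3% up in *sgf11*, beside 14.1 and 16.4%. The group had median log2 fold changes of -0.046 and -0.11.

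Both genes listed for the corners where 3 cells meet were downregulated in both mutants. *aka* (Anakonda), which is needed to place Gliotactin at these corners, was at 184, 185, 196 and 153 CPM in wild type, at 77.8, 76.7, 90.5 and 86.3 CPM in *nonstop*, and at 96.2, 93.7, 90.3 and 81.4 CPM in *sgf11*. All 8 mutant libraries were far below wild type, and the log2 fold change was -1.12 in *nonstop* (SE 0.10, FDR = 1.30e-07) and -0.99 in *sgf11* (SE 0.10, FDR = 6.37e-07) (edgeR's quasi-likelihood test). Per *moody*, *aka* was 0.330 to 0.405 in wild type, beside 0.178 to 0.293 in *nonstop* and 0.205 to 0.312 in *sgf11*, again without overlap with wild type. *M6*, which encodes a proteolipid protein of the same corners, was at 55.7, 59.3, 57.3 and 49.7 CPM in wild type, at 21.4, 34.5, 26.6 and 22.4 CPM in *nonstop*, and at 36.3, 37.6, 33.3 and 26.8 CPM in *sgf11*. Its log2 fold changes were -1.09 (FDR = 8.34e-06) and -0.73 (FDR = 4.64e-04), and 23.3% of its exon length overlaps the gene *SAK*. Per *moody*, *M6* was 0.102 to 0.118 in wild type, below that at 0.0596 to 0.0859 in *nonstop*, and at 0.0799 to 0.118 in *sgf11*, which overlapped wild type. *Gli*, the third gene of these corners, was not called in either mutant.

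Further pleated junction components were called in *nonstop* only, though none of the 7 tested passed the test between the mutants. *pasi1* and *pasi2*, which encode 4-pass membrane proteins needed for barrier formation, had log2 fold changes of -0.75 (FDR = 4.95e-05) and -0.66 (FDR = 5.87e-04) in *nonstop*, beside -0.28 (FDR = 0.0529) and -0.32 (FDR = 0.0602 by edgeR's quasi-likelihood test) in *sgf11*. The *nonstop* libraries of *pasi2*, at 32.6 to 47.9 CPM, overlapped wild type at 46.8 to 64.2 CPM. The third claudin gene, *pck*, is named here after its values were seen. Its log2 fold changes were -0.55 (FDR = 0.00265) in *nonstop* and -0.28 (FDR = 0.0992) in *sgf11*. Without wild-type replicate 2 or *nonstop* replicate 4 the *nonstop* call of *pck* was lost (FDR = 0.0125 and 0.0117). *nrv2*, a beta subunit gene of the sodium pump that also marks glia, had 0.61 (FDR = 0.00724) and 0.56 (FDR = 0.0139). Its *nonstop* libraries ranged from 209 to 398 CPM and overlapped wild type at 177 to 209 CPM. The call was lost with library size alone as the scale (FDR = 0.0200) and without wild-type replicate 2 (FDR = 0.0167), 3 (0.0112) or 4 (0.0122), or without *nonstop* replicate 1 (0.0241) or 2 (0.0328). *Atpalpha*, *nrv1* and *Fas3* were not called.

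The 5 genes listed for Ly6 proteins, a family of small GPI-anchored proteins with members that act in junction assembly, went in both directions. Whether each of the 5 acts in the septate junction was not tested. *cold* was downregulated in both mutants, from 44.2 to 69.95 CPM in wild type to 28.7 to 34.6 CPM in *nonstop* (log2 fold change -0.84, FDR = 4.60e-05) and 32.7 to 42.5 CPM in *sgf11* (-0.64, FDR = 6.96e-04). *twit*, in contrast, was upregulated in both mutants, and was the only gene of this list called up in either. It rose from 15.02 to 21.3 CPM in wild type to 24.1 to 35.2 CPM in *nonstop* and 43.7 to 48.98 CPM in *sgf11*. The log2 fold change was 0.64 (FDR = 5.47e-04) in *nonstop* and 1.35 (FDR = 2.98e-07) in *sgf11*, the *nonstop* call was lost with library size alone as the scale (FDR = 0.0138), and 11.04% of the exon length of *twit* overlaps *CG14400*. *crim* fell in *nonstop*, from 12.7 to 14.3 CPM in wild type to 6.25 to 7.82 CPM (-0.89, FDR = 2.01e-04), and was at 9.53 to 16.2 CPM in *sgf11* (-0.11, FDR = 0.611). *crok* was downregulated in *nonstop* (-0.54, FDR = 0.00154) and had -0.21 (FDR = 0.166) in *sgf11*, and *bou* was not called.

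*twit* and *crim* were the genes called between the mutants among the 21, or 9.52%, beside 2.11% of all genes. The log2 difference of *nonstop* from *sgf11* was -0.71 for *twit* (SE 0.12, FDR = 0.00225 by edgeR's quasi-likelihood test) and -0.79 for *crim* (SE 0.16, FDR = 0.00756). The call for *twit* was lost without *nonstop* replicate 1 (FDR = 0.0104) or 4 (FDR = 0.0103). That for *crim* was lost without any 1 of 11 libraries, with an FDR up to 0.0286.

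Of 4 genes for basolateral scaffolds, 2 rose in each mutant and none fell, where 18.7% of all genes rose in *nonstop* and 16.4% in *sgf11*. *l(2)gl*, whose product restricts the apical domain, was at 258, 281, 292 and 275 CPM in wild type, at 474, 463, 515 and 498 CPM in *nonstop*, and at 479.5, 464, 493 and 433 CPM in *sgf11*. Every mutant library was above every wild-type library, and the log2 fold changes were 0.82 (SE 0.09, FDR = 1.38e-06) and 0.76 (SE 0.09, FDR = 4.01e-06 by edgeR's quasi-likelihood test). *dlg1*, which encodes the MAGUK protein Discs large, had 0.52 (FDR = 4.06e-04) and 0.35 (FDR = 0.00862), and the *sgf11* call was lost when any 1 of 9 of the 12 libraries was left out, with an FDR up to 0.0320. With library size alone as the scale, *dlg1* was called in neither mutant (FDR = 0.0109 and 0.0571), whereas *l(2)gl* was called in both. *scrib* and *yrt* were not called.

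**Figure D5:**
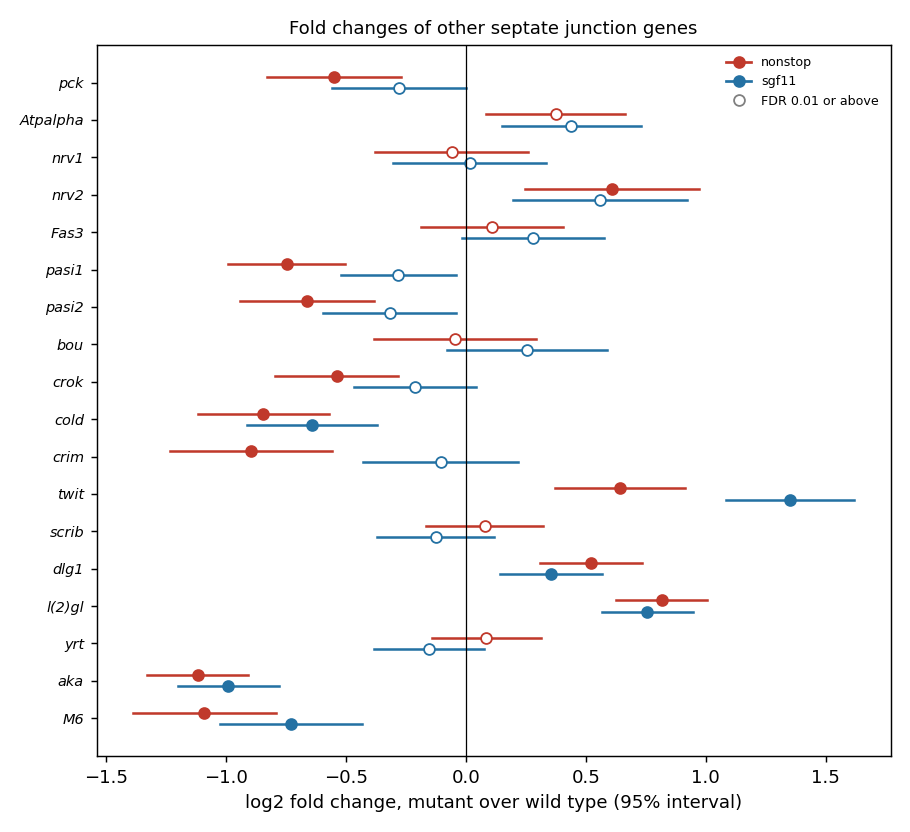
Log2 fold change over wild type in *nonstop* (red) and *sgf11* (blue), with 95% intervals, of 18 further septate junction genes; filled circles have an FDR under 0.01. *aka* and *M6* are lowest in *nonstop*, at -1.12 and -1.09, and *twit* is highest in *sgf11*, at 1.35.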

How the data were processed

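The deposited files of the authors hold whole read counts per gene for 12 libraries. Per the labels and the study's methods, cDNA was made with Ovation RNA-Seq V2, reads were trimmed with Trimmomatic 0.32 and aligned with TopHat 2.0.13 and Bowtie2 2.2.4 to BDGP5, and HTSeq 0.6.1 counted them in union mode without strand. Entries that name no gene held 96.1 to 96.7% of the counts in a library and were left out. The deposited edgeR tables hold the authors' own fold changes, p-values and FDR and were not used.

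Counts were analysed with edgeR 4.0.16 in R 4.3.3, limma 3.58.1 and DESeq2 1.42.0 being loaded for alternatives. The filter kept 9966 genes, those above 1 CPM in 4 or more of the 12 libraries, and 1 quasi-likelihood model with TMM factors gave each contrast, with Benjamini-Hochberg adjustment and an FDR threshold of 0.01. The members, lists and tests were chosen with earlier results of these data known. Symbols (15001 of 15682 identifiers matched), coordinates and exon lengths came from the BDGP6 annotation, while the authors counted on BDGP5. The fitted fold changes used a prior count of 0.125, and log2 CPM used a prior count of 2. The tests were checked on simulated counts. Of 100 genes changed 2-fold, 60% were called for *nonstop* and 63% for *sgf11*. Of 100 changed 4-fold, 88 and 90% were called, with 5 and 0 false calls among the 9966 genes.

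The text names all members, of 5 lists of further septate junction genes up to 3 called genes with the largest change and any gene near 0, and the gene most correlated with each member. Of the further septate junction genes, *pck*, *crok* and those said not to be called were named after their values were seen. *Mcr* and the cortex glia marker *zyd* could not be matched. Alternatives were other scalings, filters, tests and thresholds, a block for the replicate number, each library left out, and 1 alternative added after the data were seen. Replicates are separate pools of nuclei, and p-values measure the spread between these pools.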

Additional observations from a re-analysis of the deposited data

Results flagged for a closer look

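In 4 of the 63 groups of 4 libraries screened, over 21 septate junction genes, 1 library stood apart from the other 3 of its genotype, where chance gives about 1 in 20. *Nrx-IV* in *sgf11* replicate 4 was at 208 CPM, beside 259 to 266 CPM in the other 3. *cora* in *nonstop* replicate 3 was at 507 CPM, beside 625 to 639. *Gli* in *sgf11* replicate 2 was at 159 CPM, beside 129.67 to 133, and *pasi2* in *nonstop* replicate 2 at 47.9 CPM, beside 32.6 to 34.7.

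The effects of both mutants differed by a direct test for 2 genes. *twit* was lower in *nonstop* than in *sgf11* by a log2 difference of -0.71 (FDR = 0.00225 from edgeR's quasi-likelihood test), and *crim* by -0.79 (FDR = 0.00756), with all 4 *nonstop* libraries below all 4 *sgf11* libraries for each.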

How the results depend on the processing

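In *nonstop* 4 members were downregulated under every alternative but 2, and 5, with *kune*, with library size alone and at an FDR of 0.05. When the 3633 genes that pass the filter with library totals of all entries (the stricter filter) alone gave the TMM factors, 1 member was upregulated in *nonstop*, 1 was upregulated and 1 downregulated in *sgf11*, 6 further septate junction genes were upregulated in *sgf11* and 1 was called between the mutants. With only these genes tested, the numbers were 1, 1, 2, 5 and 1, with 15 further genes left. At an FDR of 0.05, 1 member and 6 further genes were upregulated in *sgf11*, and 4 were called between the mutants. The exact test and DESeq2 each gave 6 further genes upregulated in *sgf11*, library size alone gave 1 in *nonstop*, and the fit of the 2 groups compared gave 1 between the mutants. With 1 library left out, 2 to 4 members were downregulated in *sgf11* (2 without *sgf11* replicate 4, which lost *Nrx-IV* and *Cont*), 2 to 5 further genes were upregulated in *sgf11* (5 without *sgf11* replicate 1) and 0 to 2 were called between the mutants (0 without *nonstop* replicate 1 or 4). Without wild-type replicate 4 and *sgf11* replicate 4 together, 4 members were downregulated in each mutant and 0 further genes were called between the mutants by edgeR's quasi-likelihood test.

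Directions turned for values near 0 that were not called. For *cora*, *nonstop* had 0.13 with both settings of the stricter filter and -0.044 to 0.047 with libraries left out, *sgf11* had -0.0052 with library size alone and -0.0030 to 0.12 with libraries left out, and the difference between the mutants was -0.11 to 0.016 with libraries left out. The difference for *sinu* was -0.072 with library size alone and -0.066 to 0.058 with libraries left out, among them -0.012 without both replicates 4. With library size alone *Gli* had -0.044 in *nonstop*, and the difference between the mutants was -0.022 for *nrv2* (-0.13 to 0.18 with libraries left out) and -0.014 for *l(2)gl*. With TMM factors of the stricter filter, *crim* had 0.017 in *sgf11* and *ssk* 0.058 in *nonstop* (-0.16 to 0.019 with libraries left out). The cause was not tested.

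Over all genes tested, replicate numbers did not pair the libraries. Of 12 same-numbered pairs, 2 had a correlation over 0.1 (range -0.08 to 0.12), beside 4 of 36 other pairs (range -0.165 to 0.165). For the 9 septate junction genes, replicate 4 had the lowest median deviation in each genotype, and the same value over all genes was not computed. With the replicate block, 1 of the 21 further genes was called between the mutants in place of 2, since *crim* was lost (FDR = 0.0151), *nrv2* was lost in *nonstop* (FDR = 0.0122) and *Tsp2A* was called up in *sgf11* (FDR = 0.00409), by edgeR's quasi-likelihood test. No other call of a septate junction gene changed.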

Other observations

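The smooth septate junction of gut and Malpighian tubules has its own proteins, and 3 of its 4 listed genes had few counts in these glia. *mesh* was at 0.211 to 2.03 CPM in wild type, beside 0.367 to 1.53 in *nonstop* and 0.607 to 2.07 in *sgf11*, and was not called. *Tsp2A* was at 0.455 to 1.68, 1.10 to 2.07 and 1.29 to 3.24 CPM, with a log2 fold change of 1.35 in *sgf11* (FDR = 0.0126 from edgeR's quasi-likelihood test), which did not pass the threshold but did with the replicate block (FDR = 0.00409). *hoka* had 0 counts over the wild-type libraries, 3 over *nonstop* and 6 over *sgf11*, and was not tested.

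*ssk*, the fourth gene of this list, was the most abundant and was downregulated in *sgf11*. It was at 12.4, 14.1, 15.8 and 11.7 CPM in wild type, at 14.4, 11.7, 10.6 and 13.7 CPM in *nonstop*, and at 7.94, 6.52, 10.7 and 7.64 CPM in *sgf11*. The *sgf11* libraries lay below wild type without overlap, while *nonstop* overlapped both. The log2 fold change from edgeR's quasi-likelihood test was -0.72 (SE 0.17, FDR = 0.00223) in *sgf11* and -0.091 (FDR = 0.664) in *nonstop*. The difference between the mutants was 0.63 (FDR = 0.0462), which did not pass, and without wild-type replicate 3 the *sgf11* call was lost (FDR = 0.0107).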
